A study of Rattus norvegicus with 2 samples.

Results

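The genes of oxidative phosphorylation were compared between the cervical lymph nodes of control and restraint-stressed rats. They were taken by name from the array, as every gene whose symbol starts with Ndufa, Ndufb, Ndufc, Ndufs or Ndufv (complex I), Uqcr (complex III), Cox with the numbers 4 to 8 (complex IV) or Atp5 (complex V), together with Sdha, Sdhb, Sdhc and Sdhd (complex II). The rule used no measured value and found 90 genes on 122 probes, of 36174 genes named on the array. Of these, 88 gave a signal well above background on at least 1 array, among 21096 such genes in all, and Cox8c and Ndufa4l2 did so on neither. The 88 genes held 77 subunits, 36 of complex I, 4 of complex II, 8 of complex III, 14 of complex IV and 15 of complex V. The other 11 were 7 complex I assembly factors whose names start with Ndufaf, and 4 genes that are associated with a complex or share its name only (Cox7a2l, Cox6c-ps1, Atp5s and Atp5sl).

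RNA came from cervical lymph nodes of male Sprague-Dawley rats, 10 to 12 weeks old. The C array held RNA of the control group, which was not stressed, and the RS array RNA of the group under restraint stress, for which rats were held supine on a wooden board. The label of the RS array gives no restraint time, and of the times in the study's methods the array results refer to 30 min. The file headers name another scanner model than the methods do, and a scan earlier than the experiments described there, which could not be settled here. The number of rats behind an array, and whether their RNA was pooled, is not given in the sources used here. There was 1 array per group, so the differences below have no replicate check, no test was run, and each value describes these 2 arrays.

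Oxidative phosphorylation takes place at the inner mitochondrial membrane. Complexes I and II pass electrons from NADH and succinate to ubiquinone, complex III passes them to cytochrome c, and complex IV passes them to oxygen. The proton gradient built on the way drives ATP synthase, complex V. Most subunits are encoded in the nucleus, and a small set is encoded by mitochondrial DNA. Resting lymphocytes make most of their ATP in this way. None of the 26 names searched for mitochondrially encoded subunits matched the array, so these subunits were not analysed here, and neither were Ndufa3, Ndufa13, Ndufb1, Cox6b1 and Cox7a1.

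The sequences shown are the probes of Sdha, Uqcrb and Cox7b and the promoters of the genes that stood out. Cox7b is another gene than Cox7b2, whose probe is not printed. A probe is the 60-base DNA on the array that binds the labeled RNA. The Sdha probe lies on the plus strand at chr1:29763988-29764047, the Uqcrb probe on the minus strand at chr7:67959058-67959117, and the Cox7b probe on the plus strand at chrX:94141866-94144104, where it spans an interval longer than the probe (build rn4, as named by the file headers). Capitals mark a run of alternating A and G of 8 bases in the Uqcrb probe.
Sdha probe: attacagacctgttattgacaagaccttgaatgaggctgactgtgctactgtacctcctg
Uqcrb probe: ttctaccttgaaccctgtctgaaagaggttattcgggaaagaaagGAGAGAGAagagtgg
Cox7b probe: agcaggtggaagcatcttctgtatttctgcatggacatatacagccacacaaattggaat

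The promoter stretches below are the 120 bases before the start of each gene, from RefSeq on GRCr8. They are Sdha at chr1:30764433-30764552 on the plus strand, Ndufa5 at chr4:53971236-53971355 on the minus strand, and Cox7b2 at chr14:37046961-37047080 on the plus strand. Capitals mark matches to the NRF1 motif, which is bound by nuclear respiratory factor 1, a regulator of many genes of the respiratory chain. The stretch held 2 matches for Sdha, 1 for Ndufa5 and 0 for Cox7b2.
Sdha promoter: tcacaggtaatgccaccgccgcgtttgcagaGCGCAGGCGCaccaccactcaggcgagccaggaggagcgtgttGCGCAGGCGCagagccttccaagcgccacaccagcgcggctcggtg
Ndufa5 promoter: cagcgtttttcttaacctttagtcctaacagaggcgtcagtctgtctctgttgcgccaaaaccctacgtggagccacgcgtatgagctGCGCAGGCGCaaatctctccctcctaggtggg
Cox7b2 promoter: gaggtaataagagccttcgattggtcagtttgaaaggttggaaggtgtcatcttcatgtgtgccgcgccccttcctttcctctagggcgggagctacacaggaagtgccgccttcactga

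The arrays shared 1 slide and 1 scan. The 75th percentile over probes was an intensity of 189 on C and 176 on RS, and 54.7% and 54.9% of 45598 probes were well above background. All 7 lymphocyte markers on the array were above background on both arrays, as were the 6 markers of lymph node stroma. A level is a spot intensity in arbitrary units, and a difference is log2 of RS minus log2 of C after each array was divided by its 75th percentile, so a difference of 1 is 2-fold. The scanner software gives each spot an error, and the error of a difference combines the errors of both arrays. A difference was called past the error when its 95% interval, taken from this error on a normal scale, left out 0. Of the 88 genes, 87 were read from 1 spot per array, and the median error was 0.20. In bright genes read from 1 spot the error was nearly the same value, such as 0.204 in both Atp5a1 and Ndufa5. It is a value given by the software, since 1 spot has no scatter of its own. The log2 SD between spots was 0.03 on each array for the Atp5g2 probe with 10 spots, and 0.20 for Atp5j2 with 2. The spot error leaves out the variation between animals.

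The oxidative phosphorylation genes were at nearly the same level on both arrays. Their median log2 difference was 0.04 with quartiles of -0.06 and 0.14, beside 0.02 over all 21086 genes with a value and 0.04 over the 5274 genes with the brightest signals (the top 25%, below called the bright genes), to which 70 of the 88 belonged. Only Cox7b2, 1 of 88 genes (1.14%), was 2-fold or more higher on RS, where the share was 3.46% over all genes and 1.52% among the bright genes. None was 2-fold or more lower, where the shares were 4.28% and 2.26%. Past the spot error, 3 genes were higher (3.41%), Sdha, Ndufa5 and Cox7b2, beside 11.0% of all genes and 10.1% of the bright genes. None was lower past the spot error, beside 10.2% of all genes and 7.26% of the bright genes. Cox7b2 was above background on RS only, so its value is a bound that could only lie above 0. With genes above background on both arrays alone, 2 were higher past the spot error, Sdha and Ndufa5. In RNA of a whole node, fewer cells of a type and less RNA per cell cannot be told apart.

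The genes also differed little among themselves. The differences of 74 of the 88 genes (84.1%) lay within 1.2-fold, a share of 76.8% among the bright genes and 58.5% over all genes. Their interquartile range was 0.20, beside 0.26 among the bright genes and 0.42 over all genes. Over the 86 genes above background on both arrays, the SD of the differences was 0.16, below the median spot error of 0.20. That error was given by the scanner software and is not a scatter measured between spots. In all, 54 genes lay above 0 and 34 (38.6%) below, where 47.9% of all genes and 42.0% of the bright genes lay below. This split depends on the scaling, since 55 of the 88 lay below 0 with no normalization between the arrays and 28 with scaling to the median.

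**Figure D1:**
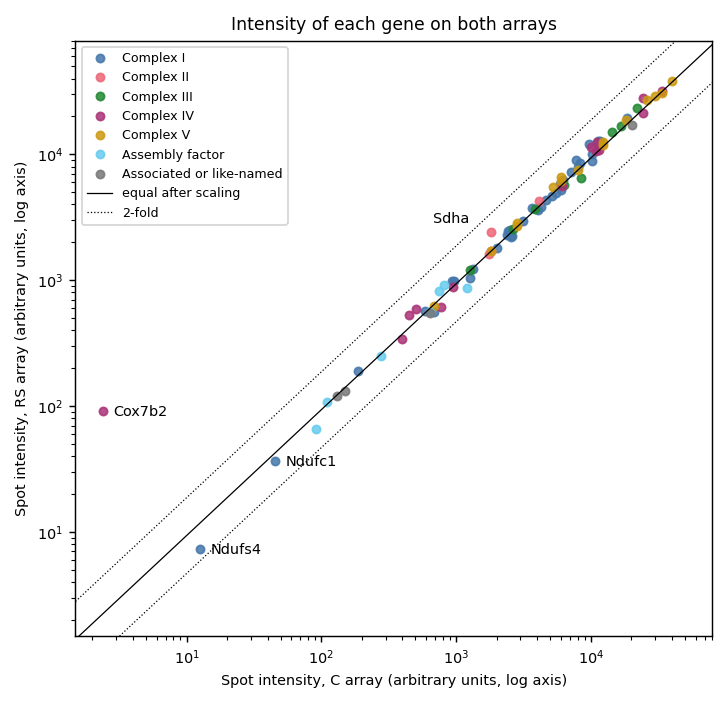
Spot intensity of the 88 oxidative phosphorylation genes on the C array (x) and the RS array (y), in arbitrary units on log axes, 1 point per gene, colored by complex. The solid line marks equal levels after scaling and the dotted lines a 2-fold difference; Cox7b2 at 2.39 and 91.3 lies apart, and all others lie within the dotted lines.

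Complex I, the NADH dehydrogenase, had a median difference of 0.06 over 36 genes, from -0.46 in Ndufs4 to 0.43 in Ndufa5. Of these genes, 20 lay above 0 and 16 below, and 1 was past the spot error. That gene was Ndufa5, an accessory subunit of the arm that reaches into the matrix, with an intensity of 9719 on C and 12196 on RS. Its difference of 0.43 ± 0.20 (spot error) was 1.34-fold, or 2.09 spot errors. It was no longer past the error with no normalization, at 0.33, or with the 75th percentile taken over spots.

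The core subunits carry the flavin and the iron-sulfur clusters through which electrons move, and 6 of the 7 lay below 0, with a median of -0.07, beside 47.9% of all genes below 0. With scaling to the median 5 of the 7 lay below 0, and with no normalization all 7 did. This grouping, like those of the accessory subunits, the isoforms of complex IV and the parts of ATP synthase below, was written down after values had been seen. Ndufs1, the largest subunit and an iron-sulfur protein, had an intensity of 1279 on C and 1046 on RS, a difference of -0.19. Ndufs8, which holds iron-sulfur clusters near the ubiquinone site, went from 692 to 560, a difference of -0.21. Ndufs7, which lines the ubiquinone site, was at -0.11, and Ndufs3 was at -0.07. Ndufv1, which binds NADH and the flavin, was at -0.06, and its partner Ndufv2 was at 0.09. None of the 7 was past the spot error.

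The 29 accessory subunits, which surround the core, had a median of 0.08, with 19 above 0 and 10 below. Grouped by name, likewise after the values were seen, the 13 genes starting with Ndufa had a median of 0.12 and 11 lay above 0. The 10 Ndufb genes, of the membrane arm, had a median of 0.07 and 6 lay above 0. The 8 Ndufs genes, core and accessory together, had a median of -0.10 and all lay below 0. With scaling to the median, 7 of the 8 did, and with no normalization the Ndufa median was 0.02 and the Ndufs median -0.20. Whether Ndufs and Ndufa genes differ was not tested.

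Among single accessory subunits, Ndufa6 was at 11366 on C and 12701 on RS, a difference of 0.26. Ndufb4 and Ndufb8, both of the membrane arm, were at 0.22 and 0.17. The dimmer probes of Ndufb4 gave 0.13 and -0.004. Ndufa4 was at 7753 and 9018, a difference of 0.32. It is named for complex I and is now counted as a subunit of complex IV. Ndufc1 was at 45.1 and 36.7, a difference of -0.20, and Ndufab1, the mitochondrial acyl carrier protein, was at 0.08. Ndufs4, an accessory subunit needed for a stable complex, was dim and well above background on C only, at 12.5 against 7.38 on RS. Its level on C was at least 1.37-fold higher, and the bound of -0.46 was about 1 spot error of 0.45. With normexp, another background correction, its difference was -0.03. Normexp was run with an offset of 50 added to each spot, which draws the differences of dim genes towards 0. The bound thus depends on the correction and its offset together. Ndufa10 and Ndufa10l1 lie side by side on chromosome 9 and are like-named copies, so their values, 0.10 and -0.01, may share labeled RNA and are uncertain.

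**Figure D2:**
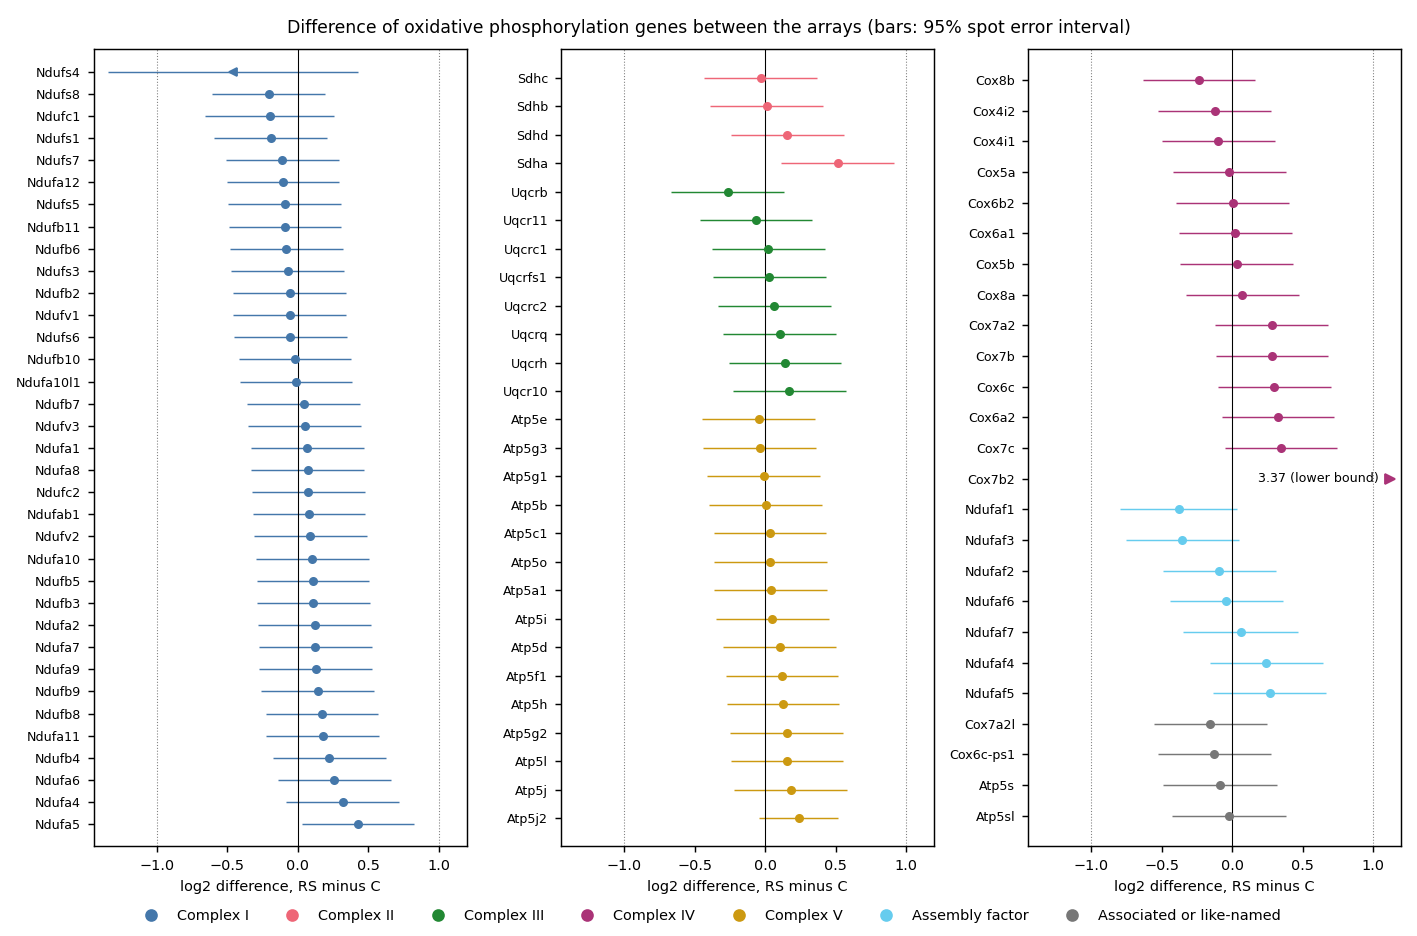
Log2 difference, RS minus C, of 87 of the 88 genes (points, colored by complex), with bars of the 95% interval from the spot error and dotted lines at 2-fold; triangles mark bounds of genes above background on 1 array only. The bars of Sdha and Ndufa5 leave out 0, Cox7b2 is off the axis at 3.37 with its bar not drawn, and those of the other genes cross 0.

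Complex II, succinate dehydrogenase, is also an enzyme of the citric acid cycle. Its Sdha subunit, the flavoprotein that oxidizes succinate, had an intensity of 1814 on C and 2423 on RS. The difference was 0.52 ± 0.20 (spot error), which is 1.43-fold and 2.53 spot errors. It stayed past the error under the 13 alternatives that could move it, between 0.42 and 0.54. Its partners had smaller values, and whether Sdha differs from them was not tested. The iron-sulfur subunit Sdhb was at 1810 and 1703, a difference of 0.01. Sdhc and Sdhd, which anchor the complex in the membrane, were at -0.03 and 0.16. The Sdha value came from 1 probe with 1 spot per array.

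Complex III, the cytochrome bc1 complex, had a median of 0.05 over 8 genes, 6 above 0 and 2 below, and none was past the spot error. Uqcrfs1, the Rieske iron-sulfur protein, was at 3847 on C and 3670 on RS, a difference of 0.03. The core proteins Uqcrc1 and Uqcrc2 were at 0.02 and 0.07. Uqcr10, Uqcrh and Uqcrq, small subunits, were at 0.17, 0.14 and 0.10, and Uqcr11 was at -0.06. Much dimmer probes of Uqcrq and Uqcr11 gave the other sign, -0.22 and 0.12. Uqcrb, a ubiquinone-binding subunit, was at 8404 and 6529, a difference of -0.27. Its probe is the one printed above with the A and G run. The other Uqcrb probe, dimmer at 112 and 118, gave 0.17.

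Complex IV, cytochrome c oxidase, had a median of 0.05 over 14 genes, 10 above 0 and 4 below. The 9 subunit isoforms found in most tissues had a median of 0.07, and 4 small subunits lay between 0.28 and 0.35. Cox7c was at 447 on C and 531 on RS, a difference of 0.35, and its dimmer probe gave 0.18. Cox6c was at 24553 and 28219, a difference of 0.30. Cox7b and Cox7a2 were both at 0.28. None of these 4 was past the spot error, although Cox6c was when its 2 probes were averaged. Cox4i1, the isoform of subunit 4 in most tissues, was at 24331 and 21223, a difference of -0.10, and Cox5a, Cox5b, Cox6a1 and Cox8a lay between -0.02 and 0.07.

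The tissue-restricted isoforms of complex IV gave no common direction, with a median of 0.00 over 5 genes. Cox7b2, an isoform known mainly from testis, was at 2.39 on C, not well above background, and at 91.3 on RS. Its level on RS was at least 10.3-fold higher, a bound of 3.37 on the log2 scale with a spot error of 1.45. As for Ndufs4, this error is that of the measured signals and not of the bound. It rests on 1 probe with 1 spot per array, at chr14:39267757-39267816 (rn4). With normexp and its offset of 50 the difference was 1.25. This was not past the spot error of the main setting, but the error was not computed anew for normexp. Cox6a2 and Cox8b, the isoforms of heart and skeletal muscle, were at 0.32 and -0.24. Cox6a2 had intensities of 504 and 590, and Cox8b of 776 and 615. Cox4i2, an isoform known from lung, was at -0.12 and Cox6b2, from testis, at 0.00. In the isoform pairs Cox4i1 and Cox4i2, Cox6a1 and Cox6a2, and Cox8a and Cox8b, no difference was past the spot error in the main setting. The 2 probes of Cox6a2 both gave 0.32, and with them averaged it was higher past the error.

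Complex V, ATP synthase, had a median of 0.05 over 15 genes, which lay between -0.04 and 0.24, the narrowest SD of the 5 complexes at 0.08. Of these, 12 lay above 0 and 3 below, and none was past the spot error. The 5 subunits of the catalytic F1 head had a median of 0.03. The alpha subunit Atp5a1 was at 40101 on C and 38517 on RS, a difference of 0.04, and the beta subunit Atp5b, the catalytic one, was at 1823 and 1709, a difference of 0.01. Atp5c1, the rotating gamma subunit, was at 0.03, and Atp5e was at -0.04. The 10 subunits of the stalk and the membrane part had a median of 0.12. With A and G run probes left out, 8 of them remained, with a median of 0.09, 5 above 0 and 3 below. Atp5j2 was at 6040 and 6653, a difference of 0.24 with a spot error of 0.14 from 2 spots. Its only probe had an A and G run. Atp5j was at 0.18. The genes Atp5g1, Atp5g2 and Atp5g3 encode the same c subunit of the rotor ring and were at -0.01, 0.15 and -0.04. One Atp5g2 probe, which had 10 spots per array and a spot error of 0.06, gave -0.04, while the brightest, with an A and G run, gave 0.15.

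The complexes thus had close medians, 0.06, 0.08, 0.05, 0.05 and 0.05 for I to V. With no normalization between arrays they were -0.04, -0.01, -0.05, -0.05 and -0.05, where the median of all genes was -0.08.

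**Figure D3:**
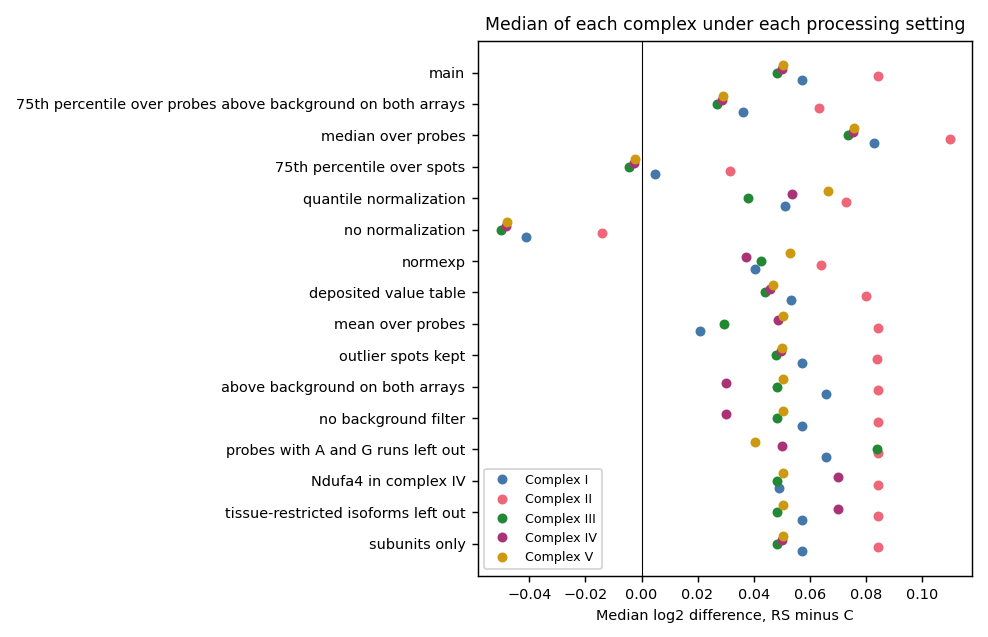
Median log2 difference, RS minus C, of complexes I to V (points, 1 color per complex) under the main setting and 15 alternatives, 1 row each. The medians lie between -0.05 and 0.11, and the 5 complexes move together with the scaling.

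The 7 Ndufaf assembly factors, which build complex I and are not part of it, had a median of -0.04. Ndufaf1, with intensities of 91.6 on C and 65.7 on RS, was at -0.38, and Ndufaf3, with 1197 and 874, was at -0.36. Both were just inside the spot error, at 1.80 and 1.74 errors, and both were lower past it with no normalization and with the 75th percentile over spots. Ndufaf4 and Ndufaf5 were at 0.24 and 0.26. Cox7a2l, which takes part in joining complexes into supercomplexes, went from 20339 to 17052, a difference of -0.16. The pseudogene Cox6c-ps1 was at -0.13 and can share labeled RNA with Cox6c. Atp5s and Atp5sl were at -0.09 and -0.02.

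Assembly factors of all complexes beyond the Ndufaf genes were read from a list, 33 on the array and 32 above background. Their median was -0.08, with 23 below 0 (71.9%, beside 47.9% of all genes) and 9 above. In each direction 1 was past the spot error, where the shares over all genes were 11.0% higher and 10.2% lower. Ttc19, a factor of complex III, was higher, with 47.2 on C and 76.5 on RS, a difference of 0.79. Cox15, which makes the heme of complex IV, was lower, with 768 and 543, a difference of -0.40, on a probe with an A and G run. Surf1, of complex IV, was at 0.14, Tmem70, of ATP synthase, at -0.40, and Atpif1, the inhibitor of ATP synthase, at 0.18.

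Of 13 carriers, the median was 0.04, 1 was lower past 2-fold, where the share over all genes was 4.28%, and none was higher past the spot error, where it was 11.0%. Cycs, the cytochrome c of most tissues, which links complexes III and IV, was at 4981 and 5617, a difference of 0.27. Cyct, the testis form, was at 7382 on C and 921 on RS, a difference of -2.90. Its other probe gave 6568 and 682, a difference of -3.17, and both probes carried an A and G run of at least 6 bases. Such runs were found in the probes of 4.80% of all genes and 45.2% of the genes 2-fold or more lower on RS, and in 5.68% of the 88 genes. The part of these runs in the Cyct result was not tested. The ADP/ATP exchangers Slc25a4 and Slc25a5 were at -0.03 and 0.04, and the uncoupling protein Ucp1 was not above background on either array.

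The 13 citric acid cycle genes had a median of 0.01, from -0.11 in Idh2 to 0.30 in Dld, and none was past the spot error. Citrate synthase, Cs, was at 2449 on C and 2770 on RS, a difference of 0.28. Of 15 regulators of mitochondrial biogenesis above background, with a median of 0.05, 1 was higher and 1 lower past the error, beside 11.0% and 10.2% of all genes. Myc, a growth factor-responsive transcription factor, went from 936 to 1435, a difference of 0.72, and Polg2, a subunit of the mitochondrial DNA polymerase, from 491 to 301, a difference of -0.61. The transcription factors Nrf1, Gabpa and Tfam were at 0.07, 0.10 and -0.03. Ppargc1a, a coactivator of Nrf1 and Gabpa, was not above background on either array.

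**Figure D4:**
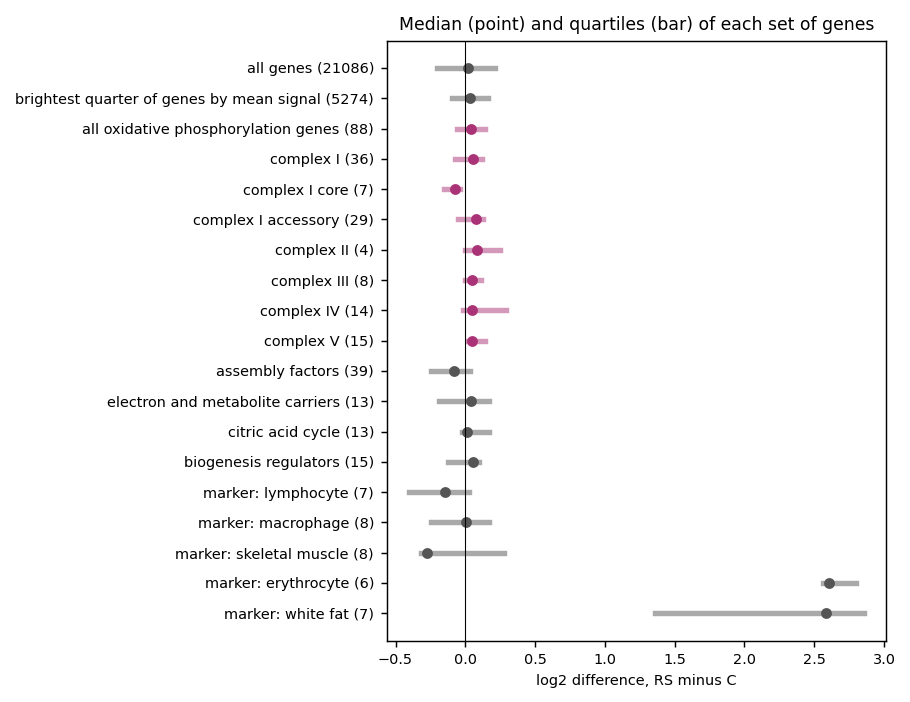
Median log2 difference, RS minus C (points), with quartiles (bars), for all genes, the oxidative phosphorylation genes by complex, related lists and marker lists, with the number of genes with a value in brackets. The oxidative phosphorylation sets drawn here lie between -0.07 and 0.08, while erythrocyte and white fat markers lie at 2.61 and 2.58.

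The promoters of 74 of the 88 genes were matched in the RefSeq table, as windows from 250 bases before to 50 after the start of the gene. The NRF1 motif was found on either strand in 15 of the 74 (20.3%) and in 4.71% of the 27457 promoters in the table. It was found in 7 of 32 promoters of complex I, 4 of 13 of complex V and 0 of 11 of complex IV. Sdha held 3 matches in its window. The median difference was 0.05 over the 15 genes with the motif and 0.06 over the 59 without it. CCGGAAGT, the motif of GABPA, was found in 7 of the 74 (9.46%) beside 4.01% of all promoters, and GGGCGG, bound by SP1, in 33 (44.6%) beside 34.9%. TCAAGGTCA, bound by ESRRA, was found in 1, Sdhd, beside 0.412% of all promoters. A match describes letters in this window and not binding.

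The genes that had several probes above background on both arrays allowed a check within an array. Of 24 such genes, 15 had probes with the same sign and 9 with both signs, and in none were opposed probes both past the spot error. Few differences of the set were past this error at all, so that last count says little. Sdha, Ndufa5 and Cox7b2 have 1 probe each and are not among the 24. The range between the probes of a gene had a median of 0.06, and Uqcrb had the widest at 0.44.

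Red cell and fat markers were much higher on RS, while the oxidative phosphorylation genes were near 0. Summed intensities below are not scaled, and they include markers not above background. The 75th percentile was 189 on C and 176 on RS, so a small fall in a sum is not a fall after scaling. Of 7 erythrocyte markers, 6 were above background, and all 6 were 2-fold or more higher on RS, with a median of 2.61 and a summed intensity of 10221 on C and 57555 on RS. Of 8 white fat markers, 7 were above background and 6 were 2-fold or more higher on RS, with a summed intensity of 6826 and 18214. Slc4a1 of the red cell and Plin1 of fat were not above background on either array. Of 6 brown fat markers, 3 were above background, with a median of 0.61 and a summed intensity of 172 on C and 261 on RS. Cidea, at 1.73, and Cpt1b, at 0.61, were higher past the spot error. Otop1 went the other way, from 11.8 on C to 8.99 on RS, a difference of -0.30 inside the spot error. Ucp1, Elovl3 and Dio2 were not above background on either array. The skeletal muscle genes Ckm, Myh2, Myh4 and Ckmt2 were not above background on the arrays. Of 12 skeletal muscle markers, 8 were above background on C and 5 on RS, with a median of -0.27. The summed intensity was 278 on C and 261 on RS. Acta1, Myh1 and Myh7 were dim and above background on C only, so their values in this median are bounds. Of 5 salivary gland markers, 1 was above background, Klk1, with 19.3 and 11.1. Lymphocyte markers had a median of -0.15 and a summed intensity of 27562 and 24574, macrophage markers a median of 0.01, and lymph node stroma markers one of 0.26. Past the spot error, 2 of 7 lymphocyte markers were lower and none higher, and 2 of 8 macrophage markers were higher and none lower. Of 6 stroma markers, 2 were higher and 1 lower past it. The shares over all genes were 11.0% higher and 10.2% lower. The part of these cells in the Sdha, Ndufa5 and Cox7b2 values was not tested.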

How the data were processed

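The scanner output of 2 arrays of an Agilent rat design, 1 of the C and 1 of the RS group, was used. The authors labeled RNA with Cy3 and extracted the spots with Agilent Feature Extraction 11.5.1.1, and they deposited background-subtracted spot intensity values without normalization between arrays. A second deposited table, of log2 values already scaled within each array, served as an alternative. From the deposited intensity values, outlier spots (489 on C and 660 on RS) were left out, the spots of a probe were averaged on the log2 scale, and each array was shifted by its 75th percentile, the scaling of the study's methods. A gene was its brightest probe, kept if more than 50% of its spots were well above background on either array. Where only 1 array gave such a signal, the difference is a bound, taken against the higher of its own signal and the lowest signal above background (9.45 on C and 8.52 on RS), and 21086 of 21096 genes had a value.

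The members of the set, the lists and the rule for named genes were chosen with earlier results of these data known. Genes named are those past 2-fold, the 2 brightest, 2 highest and 2 lowest of each complex, the core subunits, the isoform pairs and genes whose probes oppose each other past the error. Other names were added to complete the groups after their values were seen. The value of 1 gene of the set is not reported here by name, though counts and medians include it. Array symbols can be old. RefSeq accessions matched 82 of the 88 genes, and 16 carry another symbol there. No test was possible with 1 array per group. Precision is limited by having 2 arrays. Of the alternatives, 15 were planned and 1 was added after seeing the data. Steps were tested on simulated arrays. The software was Python 3.11.15 (pandas 2.3.3, numpy 2.4.6, matplotlib 3.10.9) and, for normexp, limma 3.58.1 in R 4.3.3.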

Additional observations from a re-analysis of the deposited data

How the results depend on the processing

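Of 176 values of counts and medians computed under 16 alternatives, 171 were labeled the same and 5 moved. Counts were labeled by the ratio of the 2 counts, and medians by a limit taken from the spot error of single genes. This limit is wider than the medians, so a median could change sign and still be labeled the same. The count of genes 2-fold or more higher went from 1 to 0 when genes above background on both arrays alone were used and when tissue-restricted isoforms were left out, since each removes Cox7b2. The count of genes lower past the spot error went from 0 to 2, Ndufaf1 and Ndufaf3, with the 75th percentile over spots and with no normalization. The count of genes higher past the error went from 3 to 5 with the mean over probes, which added Cox6a2 and Cox6c. The median of all 88 genes lay between -0.06 with no normalization and 0.07 with scaling to the median, and below 0 under 2 alternatives. Of 582 values of named genes, 577 were labeled the same. Cox7b2 was 1.25 with normexp, also with the probes of the main setting (added after seeing the data), and 5.35 with no background filter, and Uqcrb was -0.05 with the mean over probes and 0.17 with A and G run probes left out. Over all genes, the counts 2-fold or more higher and lower were 730 and 903, and became 234 and 378 with normexp, 2031 and 2148 with no background filter, 716 and 498 without A and G run probes, and 493 and 601 for genes above background on both arrays. The normexp setting includes the offset of 50, and the spot errors were not computed anew for it. The cause of these changes, and the part of the offset in them, was not tested. No paired analysis was possible because there was only 1 array on each side. Signal over background limits Ndufs4 and Cox7b2, which were above background on 1 array each.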
